A study of Homo sapiens with 6 samples.

Results

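The loci of HOXA9, HOXA10, MEIS1, PBX3 and MN1 were examined in ChIP-seq peak lists of ME-1, an established human leukemia cell line with inv(16), the chromosome 16 inversion that makes the fusion protein CBFβ-SMMHC. Their members were all peaks that overlapped 4 windows of the hg19 genome: the HOXA cluster with HOXA9 and HOXA10 (chr7:27100000-27300000), MEIS1 (chr2:66600000-66850000), PBX3 (chr9:128460000-128780000) and MN1 (chr22:28100000-28250000). These windows held 92 of the 145457 peaks in 4 lists: 3 of 10319 RUNX1 peaks in AI-10-49, 0 of 1701 RUNX1 peaks in DMSO, 44 of 66350 H3K27ac regions in AI-10-49 and 45 of 67087 H3K27ac regions in DMSO. Cells had been kept for 6 h with AI-10-49 at 1 µM, a small molecule that blocks the binding of CBFβ-SMMHC to RUNX1, or with DMSO, the solvent. All cells carried the fusion, since all were of 1 line. ChIP used antibodies to RUNX1, a transcription factor of blood cells, and to H3K27ac, a histone H3 acetylation found at active promoters and enhancers. Each antibody and condition had 1 library, so differences between AI-10-49 and DMSO have no replicate check and no test was made. The intervals given here (95%, exact Poisson or binomial) cover counting error only. No expression values were at hand to check the cell type against its markers.

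HOXA9 and HOXA10 are homeobox transcription factors of the HOXA cluster that are active in blood stem and progenitor cells and are switched down as myeloid cells mature. MEIS1 and PBX3 are homeobox proteins of the TALE class that bind DNA together with HOXA proteins, and HOXA9 with MEIS1 drives leukemia in mouse models. MN1 is a transcriptional co-regulator that is highly expressed in acute myeloid leukemia with inv(16) and can cause leukemia in mice.

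The sequences at the starts of these genes are shown because RUNX1, the factor precipitated here, binds a short core sequence. RefSeq promoter windows of 300 bases (250 before and 50 after a gene's start, build GRCh38.p14) were found for 4 of the 5 genes, and MN1 had no entry. They were searched on both strands for the RUNX core motifs TGTGGT and TGCGGT, which stand in capitals in lower-case sequence. The windows are those of MEIS1 (chr2:66434875-66435174, plus strand), PBX3 (chr9:125747933-125748232, plus strand), HOXA9 (chr7:27165488-27165787, minus strand) and, for the first HOXA10 window of the table, chr7:27179812-27180111 (minus strand), all 5′ to 3′ on the gene's strand.
MEIS1: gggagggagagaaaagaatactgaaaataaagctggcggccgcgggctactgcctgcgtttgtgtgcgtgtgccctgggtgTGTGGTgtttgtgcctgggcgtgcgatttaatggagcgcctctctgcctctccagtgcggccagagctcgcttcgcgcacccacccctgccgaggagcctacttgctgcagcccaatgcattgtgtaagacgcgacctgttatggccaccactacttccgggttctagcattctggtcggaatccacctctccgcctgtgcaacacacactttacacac
PBX3: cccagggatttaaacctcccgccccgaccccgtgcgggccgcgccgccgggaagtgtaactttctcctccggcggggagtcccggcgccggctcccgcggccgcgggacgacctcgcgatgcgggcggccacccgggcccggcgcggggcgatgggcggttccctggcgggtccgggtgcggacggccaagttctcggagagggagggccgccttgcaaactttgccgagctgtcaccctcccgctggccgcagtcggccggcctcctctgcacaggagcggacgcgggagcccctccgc
HOXA9: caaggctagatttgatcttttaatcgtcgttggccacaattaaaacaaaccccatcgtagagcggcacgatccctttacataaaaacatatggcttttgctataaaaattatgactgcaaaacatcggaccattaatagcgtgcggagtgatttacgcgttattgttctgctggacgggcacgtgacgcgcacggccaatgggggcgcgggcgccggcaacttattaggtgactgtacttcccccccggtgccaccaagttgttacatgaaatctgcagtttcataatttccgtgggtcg
HOXA10: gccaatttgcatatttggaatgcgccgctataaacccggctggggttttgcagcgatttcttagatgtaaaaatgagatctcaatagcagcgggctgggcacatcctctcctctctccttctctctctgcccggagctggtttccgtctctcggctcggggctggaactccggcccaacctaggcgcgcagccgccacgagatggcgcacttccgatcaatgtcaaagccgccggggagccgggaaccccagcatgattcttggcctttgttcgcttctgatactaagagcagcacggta
The MEIS1 window held 1 RUNX core, TGTGGT, whose first base lies at -169 relative to the start. The windows of PBX3, HOXA9 and HOXA10 held none, nor did the second HOXA10 window. Among all 35116 promoter windows of 300 bases in the table, 19.6% held at least 1 such motif, and 1 of the 5 windows of these genes did. The peaks are placed in hg19 and the promoter windows in GRCh38.p14, so no peak was set against a promoter and no region below is assigned to an exon, an intron or a promoter.

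Read totals, in megareads (M reads), were recovered from the peak lists, as were the fragments over each summit. The RUNX1 libraries held 31.5 M reads in AI-10-49 and 33.8 M in DMSO, and the H3K27ac libraries 37.0 M and 35.7 M. The inputs held 27.6 M reads in both AI-10-49 lists and 34.0 M in the H3K27ac list of DMSO. Levels below are fragments over the summit per M reads of the same library. Over the whole H3K27ac lists, DMSO regions in both lists had a median ratio of 0.838 (AI-10-49 over DMSO, quartiles 0.634 and 1.16). That median moved with the level in DMSO and was above 1 among low regions: 1.45 at 0.25 to 0.5 fragments per M reads and 1.17 at 0.5 to 0.7. It was 0.965 at 0.7 to 1, 0.787 at 1 to 1.4, 0.679 at 1.4 to 2 and 0.631 at 2 to 2.8. It was lowest, 0.62, at 2.8 to 4, and was 0.635 at 4 to 5.6 and 0.683 at 5.6 to 8.

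Acetylated sequence was shorter in AI-10-49 at every locus. Acetylated regions covered 47.6 kb of the 4 windows in AI-10-49 and 72.9 kb in DMSO, a ratio of 0.652, where the whole lists gave 0.908. Of the DMSO-acetylated sequence 63.7% was also in a region of AI-10-49, against 75.2% over the whole list. Conversely 97.7% of the AI-10-49-acetylated sequence lay in DMSO regions, against 82.8%. Only 1 of the 44 AI-10-49 regions overlapped no DMSO region, where 21% of the whole list did. The other 43 fell on 23 DMSO regions, so several pieces of the same DMSO region were each counted as shared. With an overlap of 50% of both intervals the order turned: 29.5% of the AI-10-49 regions of these loci were shared and 47.0% of the whole list. Of the 45 DMSO regions 22 (48.9%) were in DMSO only, and over the whole list 29% were.

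**Figure D1:**
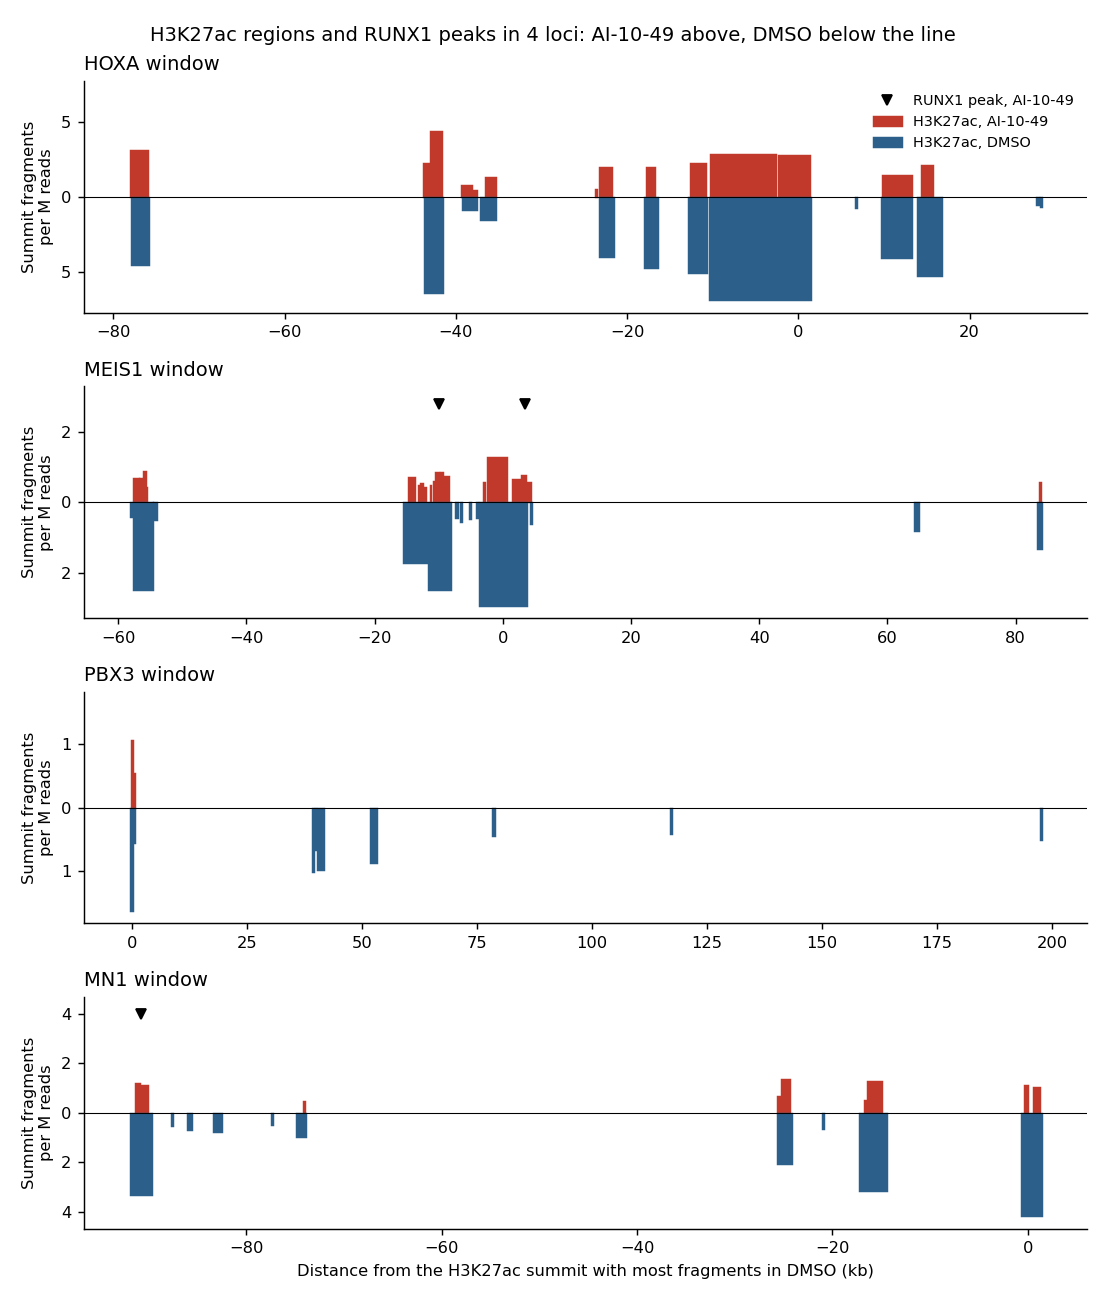
H3K27ac regions as bars (width: the region; height: the level just defined) in AI-10-49 above and DMSO below the line, with the 3 RUNX1 peaks of AI-10-49 as triangles, by distance in kb from the highest DMSO summit of each window. The DMSO bars are taller at all 4 loci, those of MEIS1 and MN1 are divided into smaller AI-10-49 regions, and PBX3 has AI-10-49 regions only at its left edge.

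The length covered differed between the loci. PBX3 had 0.749 kb in 2 AI-10-49 regions and 5.99 kb in 9 DMSO regions, a ratio of 0.125. MN1 had 5.5 kb in 9 AI-10-49 regions and 11.8 kb in 10 DMSO regions, a ratio of 0.467. MEIS1 had 13.1 kb in 19 AI-10-49 regions and 22.3 kb in 13 DMSO regions, a ratio of 0.59. HOXA had 28.2 kb in 14 AI-10-49 regions and 32.9 kb in 13 DMSO regions, a ratio of 0.857 that was close to that of the whole lists. The order of the loci turned with the limits used: at a −log10 q of at least 5 and 10 the ratio of MEIS1 was 0.381 and 0.165, below that of MN1 at 0.453 and 0.378. PBX3 was at 0.436 in windows wider by 100 kb and at 0 in windows narrower by 25 kb. Covered length moves with what each list could call, and the part of depth and input size in it was not tested.

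**Figure D2:**
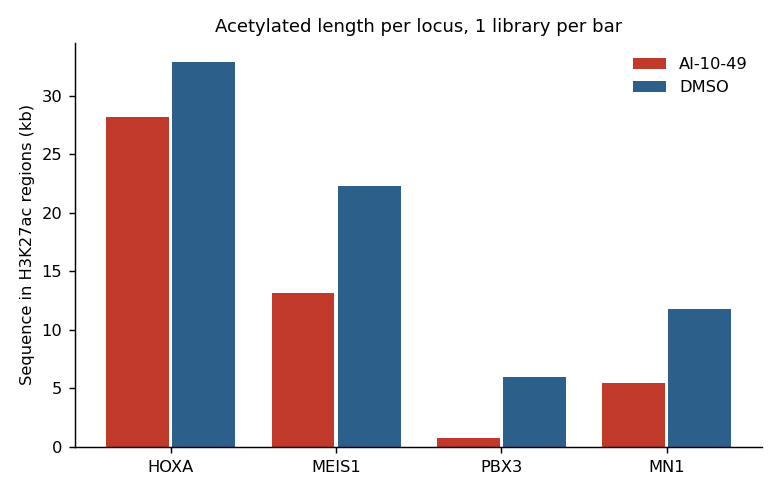
Sequence in H3K27ac regions (kb) in each window, AI-10-49 left and DMSO right of each pair, 1 library per bar. PBX3 has 0.749 kb against 5.99 kb and HOXA 28.2 kb against 32.9 kb.

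Summit levels were compared for the 23 DMSO regions that overlapped an AI-10-49 region (10 at HOXA, 6 at MEIS1, 2 at PBX3, 5 at MN1), each taken with the overlapping AI-10-49 region that had most fragments. All 23 ratios were under 1, from 0.266 to 0.965, with a median of 0.441, and in 19 of the 23 the upper bound of the counting interval was under 1 too. Past a fold of 1.5, 17 of 23 were lower in AI-10-49, where 29.1% of the 47607 regions of the whole lists were. None was higher past that fold, where 12.8% of the whole lists were. Past a fold of 2, 15 of 23 were lower, where 10% of the whole lists were. By the deposited fold enrichment in place of fragments, 13 of 23 were lower past a fold of 1.5 and 1 was higher, where 24.2% and 16.4% of the whole lists were. Because the ratio moved with the level in DMSO over the whole lists, each ratio was also placed among all DMSO regions in both lists whose summit number was within 20% of its own. By that measure 19 of 23 lay under percentile 50 and 12 of 23 under percentile 10, with a median percentile of 9.82 and a range of 0.879 to 67.9.

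**Figure D3:**
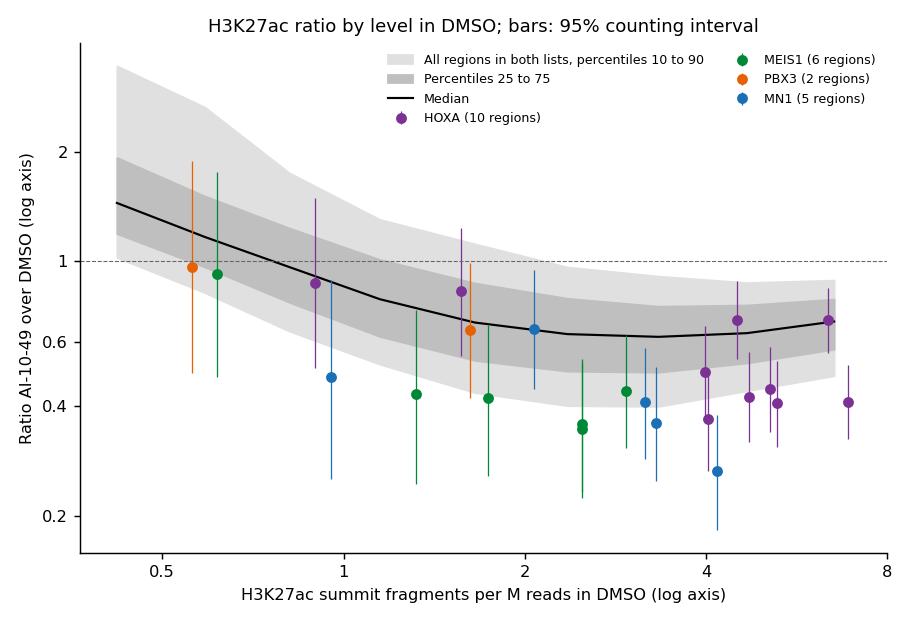
Ratio of H3K27ac summit fragments per M reads (AI-10-49 over DMSO, log axis) against the level in DMSO (log axis) for the 23 regions of the 4 loci, with 95% counting intervals, over the median and percentile bands (see the legend) of all regions in both lists. 12 of the 23 points lie under percentile 10 of regions of similar height. Both PBX3 points, 4 HOXA points and an MN1 point at percentile 50.9 lie between percentiles 25.7 and 67.9.

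At HOXA, where HOXA9 and HOXA10 belong to the members, the acetylated regions formed a pair of stretches with different ratios, a division made after the values were seen. In the stretch of higher coordinates (chr7:27189670-27229721) 6 DMSO regions were in both lists, with 1.49 to 2.84 fragments per M reads in AI-10-49 and 3.98 to 6.89 in DMSO. By fragments their ratios were 0.369 to 0.496, all past the fold of 1.5, at percentiles 3.42 to 23.2 among regions of similar height. In the stretch of lower coordinates (chr7:27135064-27177691) 4 DMSO regions had 0.784 to 4.41 fragments per M reads in AI-10-49 and 0.897 to 6.39 in DMSO. Their ratios were 0.689 to 0.874, none past that fold, at percentiles 43.9 to 67.9. These ranges did not meet, but the stretches were divided by these same values, and whether they differ was not tested. By the deposited fold enrichment the ratios overlapped: 0.48 to 0.902 in the stretch of higher coordinates, with 3 of 6 lower past the fold of 1.5, and 0.35 to 1.49 in the stretch of lower coordinates, with 2 of 4. The median of the stretch of higher coordinates was 0.63 by that measure and 0.418 by fragments.

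The widest acetylated region of the 4 loci was chr7:27202484-27214396, which was 11913 bp long in DMSO. Its summit held 2.84 (2.32 to 3.44) fragments per M reads in AI-10-49 and 6.89 (6.06 to 7.81) in DMSO, a ratio of 0.412 (0.325 to 0.52). In AI-10-49 its place was taken by chr7:27202694-27210312 and chr7:27210618-27214296, with nearly the same level, 2.84 and 2.81. Neighbouring regions had similar ratios. At chr7:27200080-27202335 the levels were 2.27 in AI-10-49 and 5.1 in DMSO (ratio 0.445), and at chr7:27226782-27229721 they were 2.14 and 5.24 (ratio 0.408). The lowest ratio of the cluster was 0.369, at chr7:27222682-27226267, with 1.49 and 4.03. The remaining regions of this stretch in both lists were chr7:27194915-27196571, with 2.0 in AI-10-49 and 4.71 in DMSO (ratio 0.425), and chr7:27189670-27191464, with 1.97 and 3.98 (ratio 0.496).

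Ratios were nearer to 1 in the stretch of lower coordinates. At chr7:27169261-27171454 the summit held 4.41 (3.76 to 5.14) fragments per M reads in AI-10-49, the highest AI-10-49 level of the 4 loci, and 6.39 (5.59 to 7.27) in DMSO, a ratio of 0.69 (0.561 to 0.847). At chr7:27135064-27137187, the region of lowest coordinates, it held 3.11 in AI-10-49 and 4.51 in DMSO, a ratio of 0.689 (0.538 to 0.881). The smaller regions chr7:27175831-27177691 and chr7:27173679-27175476 had ratios of 0.827 and 0.874, with counting intervals that included 1. The deposited fold enrichment, which is taken over the local background, was higher in AI-10-49 at the 2 tall regions of this stretch (29.5 against 19.8 in DMSO, and 19.0 against 17.8). The recovered local background at chr7:27169261-27171454 was 0.114 fragments per M reads in AI-10-49 and 0.294 in DMSO. At chr7:27173679-27175476 it was 0.29 in AI-10-49 and 0.0995 in DMSO, and the fold enrichment there was 2.51 in AI-10-49 and 7.18 in DMSO. DMSO-only regions of HOXA numbered 3 and were small (19 to 26 summit fragments). The single AI-10-49-only region, chr7:27189174-27189454, had 19 fragments and lay 0.215 kb from a DMSO region.

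**Figure D4:**
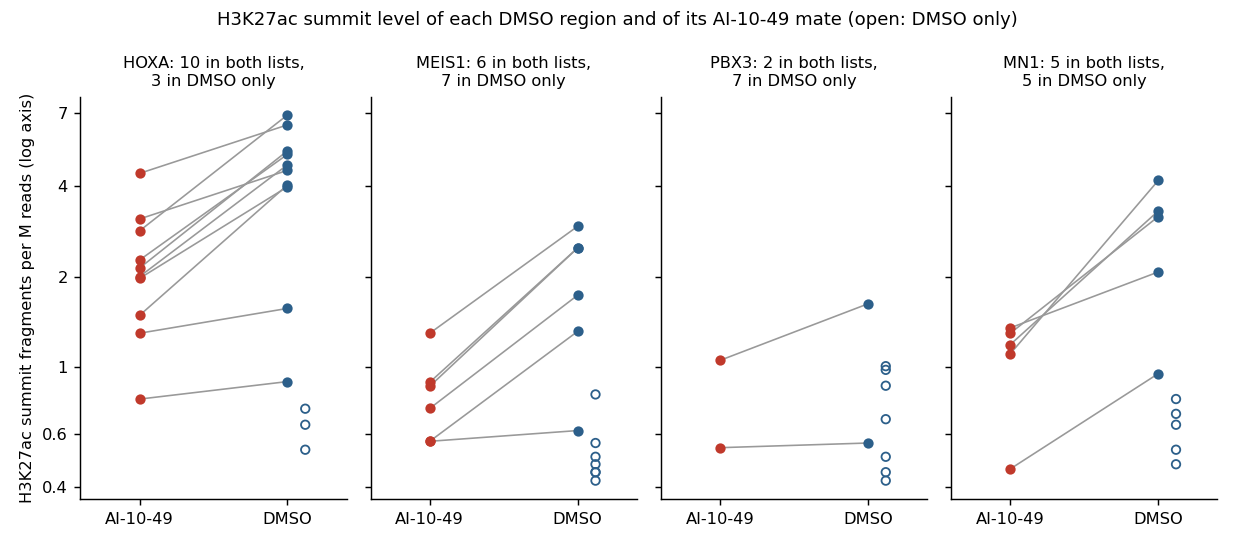
Level of H3K27ac (fragments over the summit per M reads, log axis) of each DMSO region (right) and of its AI-10-49 mate (left), joined by a line, at each locus; open circles are regions in DMSO only. In all 23 pairs the AI-10-49 point is the lower one, and at PBX3 the open circles are 7 of 9 DMSO regions.

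MEIS1 showed both lower levels and broken regions. Its tallest DMSO region, chr2:66714698-66722190, had 1.3 (0.957 to 1.72) fragments per M reads in AI-10-49 and 2.94 (2.41 to 3.56) in DMSO, a ratio of 0.441 (0.307 to 0.626). At chr2:66706752-66710247 the levels were 0.865 (0.592 to 1.22) in AI-10-49 and 2.49 (2.0 to 3.07) in DMSO, a ratio of 0.347 (0.224 to 0.525). At chr2:66660708-66663837 they were 0.892 and 2.49, a ratio of 0.358. At chr2:66702831-66706543 they were 0.73 and 1.74, a ratio of 0.42. These 4 ratios lay at percentiles 4.43 to 16.2 among regions of similar height, and the 4 AI-10-49 counting intervals lay wholly below those of DMSO.

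The same 4 MEIS1 regions each overlapped 4 or 5 AI-10-49 regions, and over the whole list 18.6% of the DMSO regions in both lists overlapped at least 2. These 4 were 3130 to 7493 bp wide, where the median DMSO region of the whole list had 551 bp. A wider region has room for more pieces, and the share was not matched for width. All 4 loci together had 11 regions of 23 that overlapped at least 2: 4 at MEIS1, 4 at MN1, 3 at HOXA and 0 at PBX3. The pieces of chr2:66706752-66710247, for example, ranged from 0.487 to 0.865 fragments per M reads and from 3.97 to 8.94 in −log10 q. The lowest level listed for AI-10-49 anywhere was 0.324. At the far end of the window, chr2:66801681-66802500 had 0.568 in AI-10-49 and 1.32 in DMSO (ratio 0.431, percentile 4.47). The smallest MEIS1 region in both lists, chr2:66722636-66722958, had 0.568 and 0.616 (ratio 0.921), and its interval included 1. Of the 7 DMSO-only regions, the one with the highest −log10 q (15.3) was chr2:66782627-66783361, with 29 fragments over its summit. The gap to its closest AI-10-49 region was 18.7 kb. Of all DMSO regions within 20% of its summit number, 31.0% were in DMSO only.

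PBX3 had the smallest number of acetylated regions in AI-10-49. Both AI-10-49 regions lay at the lower edge of the window. At chr9:128468784-128469547 the levels were 1.05 in AI-10-49 and 1.63 in DMSO, a ratio of 0.649 (0.421 to 0.99). At chr9:128469708-128469941 they were 0.541 and 0.56, with an interval that included 1. Their deposited fold enrichments went the other way (9.56 in AI-10-49 against 7.02 in DMSO, and 5.06 against 3.34), with a recovered local background of 0.0778 in AI-10-49 and 0.206 and 0.147 in DMSO. The direction of this pair therefore depends on the measure.

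The other 7 DMSO regions of PBX3 had no AI-10-49 region nearer than 38.5 kb. A group of 3 close regions, chr9:128508497-128508841, chr9:128509024-128509292 and chr9:128509451-128510975, had 1.01, 0.672 and 0.981 fragments per M reads in DMSO, and chr9:128521101-128522511 had 0.869. Each of these 4 had a −log10 q of at least 10 in DMSO (12.6 to 21.4). Over the whole list 22.4% to 39.4% of DMSO regions of similar summit number were in DMSO only, so single regions of this height are often listed in 1 condition. The 3 weakest, at 15 to 18 fragments, were in a range where 52.4% to 59.4% were. With a lowest listed AI-10-49 level of 0.324 fragments per M reads, absence from that list sets no level of 0.

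MN1 had the lowest ratio of the 4 loci. At chr22:28196613-28198698, its tallest region, the summit held 1.11 (0.795 to 1.5) fragments per M reads in AI-10-49 and 4.17 (3.53 to 4.9) in DMSO, a ratio of 0.266 (0.183 to 0.377). That ratio lay at percentile 0.879 among 4780 regions of similar height, whose median was 0.623. At chr22:28105345-28107607 the levels were 1.19 in AI-10-49 and 3.31 in DMSO, a ratio of 0.36 at percentile 5.9. At chr22:28179944-28182803 they were 1.3 and 3.17, a ratio of 0.41 at percentile 11.9. A smaller region, chr22:28122399-28123408, had 0.46 and 0.953 (ratio 0.482, percentile 2.14), but its ratio by the deposited fold enrichment was 0.85, not past the fold of 1.5. The exception was chr22:28171547-28173141, where the levels were 1.35 and 2.07 and the ratio, 0.652 (0.893 by fold enrichment), lay at percentile 50.9. MN1 also had 5 regions in DMSO only, of 17 to 28 fragments, the highest of them by −log10 q (10.5) at chr22:28113905-28114786.

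Between the loci, the median ratios by fragments of MN1 (0.41), MEIS1 (0.426) and HOXA (0.471) were close to each other, with ranges that overlapped. By the deposited fold enrichment the medians lay further apart: 0.386 at MN1, 0.4445 at MEIS1 and 0.6997 at HOXA. Median percentiles among regions of similar height were 5.9 at MN1, 7.01 at MEIS1 and 16.5 at HOXA. PBX3 (0.807 by fragments) rested on 2 regions. Levels themselves differed more: the region that was tallest in DMSO had 2.84 fragments per M reads in AI-10-49 and 6.89 in DMSO at HOXA, and 1.11 in AI-10-49 and 4.17 in DMSO at MN1. At MEIS1 it had 1.3 in AI-10-49 and 2.94 in DMSO, and at PBX3 1.05 in AI-10-49 and 1.63 in DMSO. Summits of the same height need not hold the same acetylation, since wide regions spread their fragments.

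RUNX1 peaks were few at these loci. In AI-10-49 there were 2 at MEIS1 and 1 at MN1, and in DMSO there was none in any of the 4 windows. HOXA and PBX3 held none in either list. Per 100 DMSO H3K27ac regions the 4 loci had 6.67 AI-10-49 RUNX1 peaks and the whole lists 15.4, and MEIS1 alone had 15.4. All 3 peaks overlapped no DMSO RUNX1 peak, as was true of 85.1% of the AI-10-49 list. The nearest DMSO peak was 1384 kb from the MEIS1 window, 820 kb from MN1, 453 kb from PBX3 and 5015 kb from HOXA. PBX3 and HOXA had their nearest AI-10-49 peaks at 453 kb and 402 kb. No RUNX1 peak was in both lists, so no ratio between AI-10-49 and DMSO can be given, and DMSO peaks were listed from 0.326 fragments per M reads upward.

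The RUNX1 peak with most fragments was chr2:66708341-66708623 at MEIS1, with 55 summit fragments (1.75 per M reads, 1.31 to 2.27), a fold enrichment of 12.2 and rank 1813 of 10319 by −log10 q. Its summit lay inside the DMSO H3K27ac region chr2:66706752-66710247, 235 bp from that region's own summit. In AI-10-49 the RUNX1 summit lay between the listed regions chr2:66707780-66708468 and chr2:66708609-66709019. Their summits were 214 bp and 290 bp away and held 0.865 fragments per M reads each. The gap between these regions was shorter than the 210 bp taken as fragment length, so it does not show absence of acetylation. The other MEIS1 peak, chr2:66721885-66722053, was near the threshold with 17 fragments and a −log10 q of 3.14 (rank 10087). The MN1 peak, chr22:28106401-28106619, had 25 fragments over a higher background, a fold of 2.86 and a −log10 q of 2.38 (rank 10241). Its summit also lay in a short gap between listed AI-10-49 regions, chr22:28105866-28106338 and chr22:28106502-28107230.

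All 3 RUNX1 peaks overlapped an H3K27ac region of AI-10-49, where 86.1% of the list did, and a region of DMSO. Conversely 4 of the 44 AI-10-49 regions and 3 of the 45 DMSO regions overlapped one, where 13.7% and 13.8% of the whole lists did. The DMSO regions that held them had H3K27ac ratios of 0.347 and 0.441 at MEIS1 and 0.36 at MN1, all lower past the fold of 1.5. Over the whole lists 42.4% of regions with an AI-10-49 RUNX1 peak were lower past that fold, and 26% of regions without one were. These shares were not matched for the level in DMSO, with which the ratio moved, so they show no link to RUNX1 by themselves. Regions of these loci without a listed RUNX1 peak had ratios from 0.266 at chr22:28196613-28198698 to 0.965 at chr9:128469708-128469941. The HOXA window held no RUNX1 peak. Of its 10 regions in both lists, 6 were lower past the fold by fragments and 5 by fold enrichment. Over the whole lists 29.1% and 24.2% were, shares that were not matched for the level in DMSO either. At 4 to 5.6 fragments per M reads in DMSO, the median ratio of all regions was itself 0.635. Among regions of similar height, 7 of the 10 lay under percentile 50 and 5 under percentile 10, with a median percentile of 16.5. Whether RUNX1 binding bears on these ratios was not tested.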

How the data were processed

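Per the submitters' processing notes, the build was hg19 and the tools included MACS2 2.1.0, Picard 1.96, SAMtools 1.3, Bowtie2 2.1.0 and CASAVA 1.4, whose roles and order are not stated. The pairing of inputs with calls is not given either. The deposited lists hold 1 library each. The deposited ratio is the authors' fold enrichment of a summit against its background, and the score, −log10 p and −log10 q of each peak are as the authors deposited them. The score is the whole part of 10 times −log10 q and was not used.

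Summit fragments were recovered, after a check on simulated data, as the whole numbers that give the deposited fold and −log10 p under the Poisson model of MACS2. All peaks were solved to within 0.001 of their −log10 p, and at most 0.621% of a list had a second solution. Read totals assume a genome of 2700000000 bp and take the shortest peak (169, 149, 210 and 192 bp for RUNX1 in AI-10-49 and DMSO and H3K27ac in AI-10-49 and DMSO) as fragment length. An overlap of 1 bp made a peak shared. Named regions were every RUNX1 peak, the H3K27ac regions that hold one, the 3 highest H3K27ac regions per window and list, and those of 1 list only with a −log10 q of at least 10. Others were named after their values were seen. Windows and lists were chosen with earlier results of these data known. Other HOX and TALE loci were planned for an hg19 annotation and were not analysed here. Software was scipy 1.17.1, pandas 2.3.3, numpy 2.4.6 and matplotlib 3.10.9 under Python 3.11.15.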

Additional observations from a re-analysis of the deposited data

How the results depend on the processing

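Among 85 values under other settings, 64 were near the reported one (within 1.5 times or, for shares, its interval), 20 moved and 1 turned its direction. Some of the 64 could only repeat the main value, such as RUNX1 counts of 0. The cause was not tested. The 3 RUNX1 peaks of AI-10-49 became 1 at a −log10 q of at least 5 or 10. They became 5 in windows wider by 100 kb, where both added peaks lay by MN1, and 0 with the AI-10-49 list cut to the DMSO length or with at least 2 fragments per M reads. With the summit inside an H3K27ac region, 1 of 3 counted. The AI-10-49 and DMSO region numbers (44 and 45) were 18 and 27 at a −log10 q of at least 10. At 5 the AI-10-49 number was 29, and in wider windows the DMSO number was 71.

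The covered length ratio of MEIS1 (0.59) was 0.381 and 0.165 at a −log10 q of at least 5 and 10. That of PBX3 (0.125) was 0.436 in wider windows and 0 in windows narrower by 25 kb, which drop both AI-10-49 regions. The share of AI-10-49 regions in both lists (97.7%) was 29.5% with 50% of both intervals, where broken regions count as not shared by construction, 40.9% with summits within 250 bp and 100% with a margin of 1 kb. Over the whole list it was 79.0%, with 47.0% for 50% of both intervals and 55.4% for summits within 250 bp, so the loci were above the list under some rules and below it under others. The DMSO share (51.1%) was 28.9% with 50% of both intervals, against 71.0% and 46.4% over the whole list. By fold enrichment in place of fragments 1 region was higher past the fold of 1.5, where none was by fragments, and 13 were lower in place of 17. Of the whole lists 16.4% and 24.2% were. The same measure gave a median ratio of 1.44 at PBX3 (0.807 by fragments), and 0.63 in the HOXA stretch of higher coordinates (0.418), which was examined after seeing the data, as was the lower stretch (0.758 by fragments, 0.861 by fold).

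Divided by the whole-list median ratio, 15 of 23 regions were lower past the fold, where 15.9% of the whole lists were. No RUNX1 peak was in both lists, so the alternatives of its ratio gave no value. No paired analysis was possible because neither AI-10-49 nor DMSO had replicate libraries.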
